A study of Mus musculus with 4 samples.

Results

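The classical cadherins Cdh1, Cdh2, Cdh3, Cdh4, Cdh6 and Cdh11 were followed in mouse somitic gastruloids after degradation of the ZEB2 protein. The 6 genes were chosen by symbol from 24831 genes in the count tables, and all 6 had enough reads to be tested among 13602 genes. Gastruloids are aggregates of embryonic stem cells that elongate in culture and form presomitic tissue and somites. All samples came from one E14 line, labelled triple reporter, whose own Zeb2 gene was tagged with HA and the degron FKBP12F36V. One group received 100 nM dTAG-13, a small molecule that directs the tagged protein to degradation, at 72 h and again at 96 h. The second group has the title untreated; DMSO is named as control in the growth protocol. Both groups, started from 300 sorted cells a well, received 3 μM CHIR99021, an activator of WNT signalling, after 48 h and 10% Matrigel at 96 h. Each group had 2 RNA sequencing libraries, numbered 1 and 2.

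Classical cadherins are calcium-dependent adhesion proteins of the adherens junction. Their outer domains bind cadherins on the neighbouring cell, and their tails bind catenins that connect to actin. E-cadherin, encoded by Cdh1, holds epithelia and embryonic stem cells together, and N-cadherin, encoded by Cdh2, is typical of mesoderm and the neural tube. The exchange of E-cadherin for N-cadherin during gastrulation and neurulation is known as the cadherin switch, and ZEB2 is known as a repressor of Cdh1. P-cadherin (Cdh3), R-cadherin (Cdh4), K-cadherin (Cdh6) and cadherin-11 (Cdh11) are known from surface epithelia, neural tissue and retina, kidney and neural tube, and mesenchyme.

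The family has a type I branch (Cdh1, Cdh2, Cdh3 and Cdh4) and a type II branch (Cdh6 and Cdh11). The branches differ in the outermost domain, where a type I protein inserts 1 tryptophan, at residue 2, into its partner and a type II protein inserts a pair. The first 20 codons of the mature proteins of Cdh1, Cdh3, Cdh4, Cdh6 and Cdh11 are printed because they show the difference between the branches (that of Cdh2 is not printed here); capitals mark the tryptophan codons, and the stretches were taken from the longest coding transcripts of GENCODE M21 (GRCm38), 5′ to 3′.
Cdh1: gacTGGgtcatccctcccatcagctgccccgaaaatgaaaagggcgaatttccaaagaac
Cdh3: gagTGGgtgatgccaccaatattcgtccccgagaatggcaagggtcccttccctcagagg
Cdh4: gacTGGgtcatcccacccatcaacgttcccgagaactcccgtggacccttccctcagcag
Cdh6: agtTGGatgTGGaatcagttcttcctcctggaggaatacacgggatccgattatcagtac
Cdh11: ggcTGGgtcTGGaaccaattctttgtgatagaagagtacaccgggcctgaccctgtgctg

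The mature start was taken as the basic cleavage site that is followed by a tryptophan at residue 2, so that tryptophan is part of the search and the one at residue 4, found in Cdh6 and Cdh11 alone, is not. The type I genes shown also hold codons for histidine, alanine and valine, a motif known from type I cadherins, starting at residue 79 of the mature protein. These are in capitals below with their flanks, and the search found no such motif in the first domain of Cdh6 or Cdh11.
Cdh1: ctctattctCATGCCGTGtcatcaaat
Cdh3: ctttatggcCACGCTGTAtctgagaat
Cdh4: ctccgagccCACGCGGTGgatatgaac

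Gene counts summed to 12230908 and 11491330 in the dTAG-13 libraries 1 and 2 and to 12716172 and 11566746 in the untreated libraries 1 and 2. Levels are given as CPM, reads of a gene scaled to a common library size for depth and composition. No label says whether libraries came from separate cultures, so a p-value here covers the spread of the libraries at hand, which may be technical only. The edgeR quasi-likelihood test called 0 of 13602 genes at an adjusted p of 0.05 (0%), with 479 genes at an unadjusted p under 0.05, and DESeq2 called 40 of 11756 (0.34%), 26 higher and 14 lower. Zeb2 mRNA was at 103 and 108 CPM with dTAG-13 and at 98.3 and 164 CPM in untreated libraries. Its mRNA does not report on the degradation, because dTAG-13 acts on the protein.

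Cdh1 and Cdh3 were higher with dTAG-13 in both pairs of same-numbered libraries, Cdh2, Cdh6 and Cdh11 were lower in both, and Cdh4 was higher in one pair and lower in the other. Over all 13602 genes tested, 3771 were higher and 3250 lower in both pairs. Adjusted over all genes, 0 of the 6 were called by edgeR and 0 by DESeq2, and 1 of them, Cdh3, had an unadjusted edgeR p under 0.05. The dTAG-13 libraries lay above both untreated libraries for Cdh3, against 14.4% of all genes tested, and below both for Cdh2 and Cdh6, against 11.9%. The groups overlapped for Cdh1, Cdh4 and Cdh11. Because these are whole gastruloids, fewer cells of a type and less RNA per cell cannot be told apart.

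**Figure D1:**
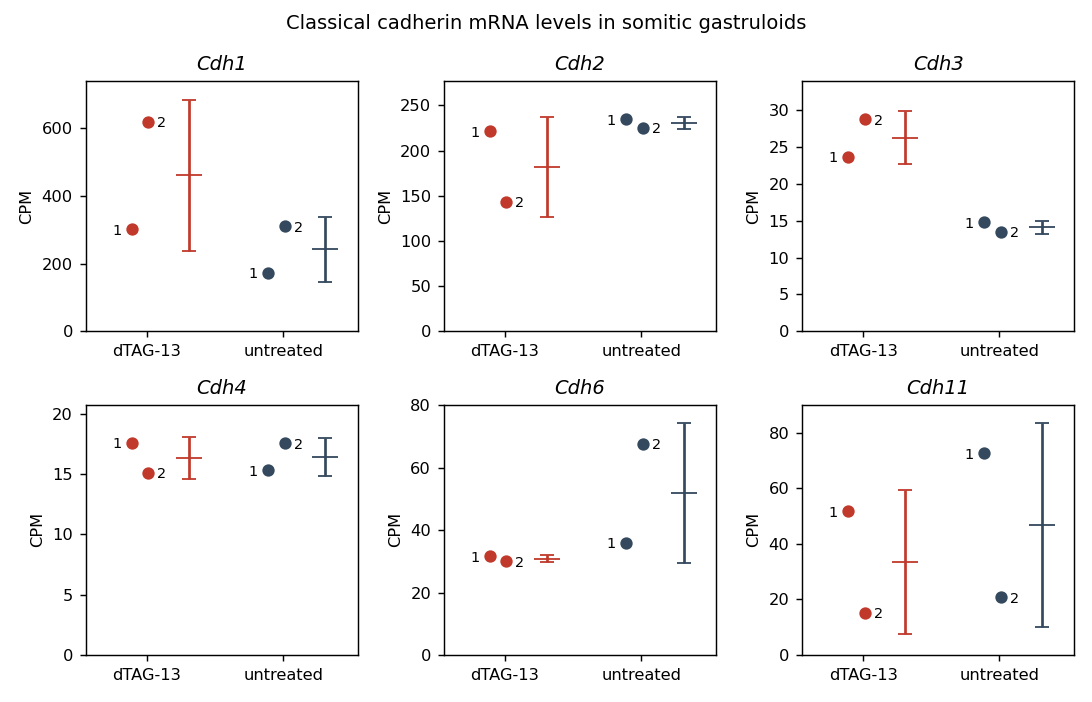
CPM of each of the 6 cadherin genes in each library (points, numbered 1 and 2 as in the sample titles), with the group mean and SD (bar, n = 2) beside them; axes start at 0. Both dTAG-13 points lie above both untreated points for Cdh3 only, and the libraries of a group lie far apart for Cdh1 and Cdh11.

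Cdh1 (ENSMUSG00000000303, chromosome 8, 106603351 to 106670246 on the plus strand of GRCm38) had 302 and 619 CPM in dTAG-13 libraries 1 and 2, against 174 and 310.3 CPM in untreated libraries 1 and 2. The untreated library 2 stood just above the dTAG-13 library 1, so the groups overlapped, while each dTAG-13 library was above the untreated library of its own number. Within numbers the level was 1.74-fold higher in number 1 and 1.996-fold higher in number 2. The group means were 461 ± 225 CPM with dTAG-13 and 242 ± 96.7 CPM in untreated libraries (SD, n = 2 each). The log2 fold change was 0.93 ± 0.48 (SE), with an adjusted p of 1.00 in edgeR. Its size rested on single libraries: it was 0.30 without dTAG-13 replicate 2 and 1.41 without untreated replicate 2.

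Library 2 exceeded library 1 by a log2 value of 1.04 with dTAG-13 and of 0.84 in untreated gastruloids. The gap between the numbers was thus about as wide as the gap between the groups, which was 0.80 in number 1 and 1.00 in number 2. The summed level of 9 transcription factor genes that promote epithelial genes, described further on, put the 4 libraries in the same order. The sums were 190.4 and 435 CPM with dTAG-13 and 119 and 208 CPM in untreated libraries. Grhl3, singled out after its values were seen, was the largest part of that sum in each library. It had this order itself, at 54.0 and 213 CPM with dTAG-13 and 33.4 and 104 CPM in untreated libraries. For 4 of the 9 genes both dTAG-13 libraries lay above both untreated ones, against 14.4% of all genes, which is not the order of Cdh1. The order of Cdh1 was not particular to the sum of the 9 genes. Summed pluripotency markers, also described further on, had it too, at 299 and 464 CPM with dTAG-13 and 252 and 319.7 CPM in untreated libraries.

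Cdh3 (ENSMUSG00000061048) encodes P-cadherin and lies 46.1 kb upstream of Cdh1 on the same strand of chromosome 8 (106510891 to 106557297). It had 23.7 and 28.8 CPM in dTAG-13 libraries 1 and 2, against 14.8 and 13.5 CPM in untreated libraries 1 and 2. The groups did not overlap, and libraries of a group lay close together. The means were 26.3 ± 3.59 CPM with dTAG-13 and 14.1 ± 0.877 CPM in untreated libraries (SD, n = 2 each). The fitted log2 fold change was 0.89 ± 0.20 (SE). Its unadjusted p of 0.00361 ranked 61 among the 13602 genes, and its adjusted p in edgeR was 0.774. In DESeq2 the adjusted p was 0.283.

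The neighbours Cdh3 and Cdh1 thus differed between the groups by nearly the same factor, 1.85-fold and 1.90-fold, with a narrower spread for Cdh3. Their count ratio was alike in the groups: Cdh1 to Cdh3 was 12.7 and 21.5 with dTAG-13 and 11.8 and 22.9 in untreated libraries. It separated the replicate numbers and not the groups, since Cdh1 was higher in library 2 of each group while Cdh3 differed between the numbers by log2 values of only 0.28 with dTAG-13 and -0.13 in untreated libraries.

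Cdh2 (ENSMUSG00000024304, chromosome 18, 16588877 to 16809246 on the minus strand) had 221 and 143 CPM in dTAG-13 libraries 1 and 2, against 235 and 225 CPM in untreated libraries 1 and 2. The untreated libraries lay close together, and the dTAG-13 library 2 stood apart below the other 3. The means were 182 ± 55.4 CPM with dTAG-13 and 230.0 ± 6.68 CPM in untreated libraries (SD, n = 2 each), and the log2 fold change was -0.34 ± 0.22 (SE; edgeR adjusted p of 1.00). The difference within numbers was -0.08 in number 1 and -0.66 in number 2 on the log2 scale. Without dTAG-13 replicate 2 the log2 fold change was -0.08, and without dTAG-13 replicate 1 it was -0.69.

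Cdh4 (ENSMUSG00000000305, chromosome 2, 179442431 to 179899373) encodes R-cadherin and is the closest type I relative of N-cadherin in this set. It had 17.6 and 15.1 CPM in dTAG-13 libraries 1 and 2, against 15.3 and 17.5 CPM in untreated libraries 1 and 2. The 4 libraries lay within a narrow range and each group spanned nearly the same range. The log2 fold change was -0.01 ± 0.22 (SE, adjusted p of 1.00 in edgeR), and it turned positive when untreated replicate 2 (0.10) or dTAG-13 replicate 2 (0.08) was left out.

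The type II gene Cdh6 (ENSMUSG00000039385, chromosome 15, 13028701 to 13173675) had 31.6 and 30.1 CPM in dTAG-13 libraries 1 and 2, against 36.01 and 67.7 CPM in untreated libraries 1 and 2. The groups did not overlap, but untreated library 1 was near the dTAG-13 libraries and untreated library 2 stood apart above. The means were 30.8 ± 1.06 CPM with dTAG-13 and 51.9 ± 22.4 CPM in untreated libraries (SD, n = 2 each). The fitted log2 fold change was -0.75 ± 0.31 (SE, unadjusted p of 0.0597 and adjusted p of 1.00 in edgeR). It was -0.22 without untreated replicate 2 and -1.15 without untreated replicate 1.

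Cdh6 was the only one of the 6 with an entry in the RefSeq promoter table (GRCm38.p6, 250 bases before to 50 after the start). ZEB proteins are known to bind CACCT, and the longer CACCTG, which contains it, is an E-box. On both strands the Cdh6 window of 300 bases held 0 matches to CACCTG and 0 to CACCT, while 20.2% and 51.9% of all 32851 windows held at least 1. This says only that these letters are not in that window.

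The other type II gene, Cdh11 (ENSMUSG00000031673, chromosome 8, 102632095 to 102785642), had 51.7 and 15.2 CPM in dTAG-13 libraries 1 and 2, against 72.6 and 20.7 CPM in untreated libraries 1 and 2. Both number 1 libraries were high and both number 2 libraries low. Within numbers the dTAG-13 library was lower by nearly the same step, with log2 differences of -0.49 in number 1 and -0.44 in number 2. The gap between the numbers was wider, with log2 values for number 2 minus number 1 of -1.75 with dTAG-13 and -1.80 in untreated libraries. The fitted log2 fold change was -0.48 ± 0.94 (SE, adjusted p of 1.00 in edgeR). Its sign turned when a library was missing from one number, to 0.68 without untreated replicate 1 and to 0.12 when dTAG-13 library 2 was left out, and it was -1.62 without dTAG-13 replicate 1.

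**Figure D2:**
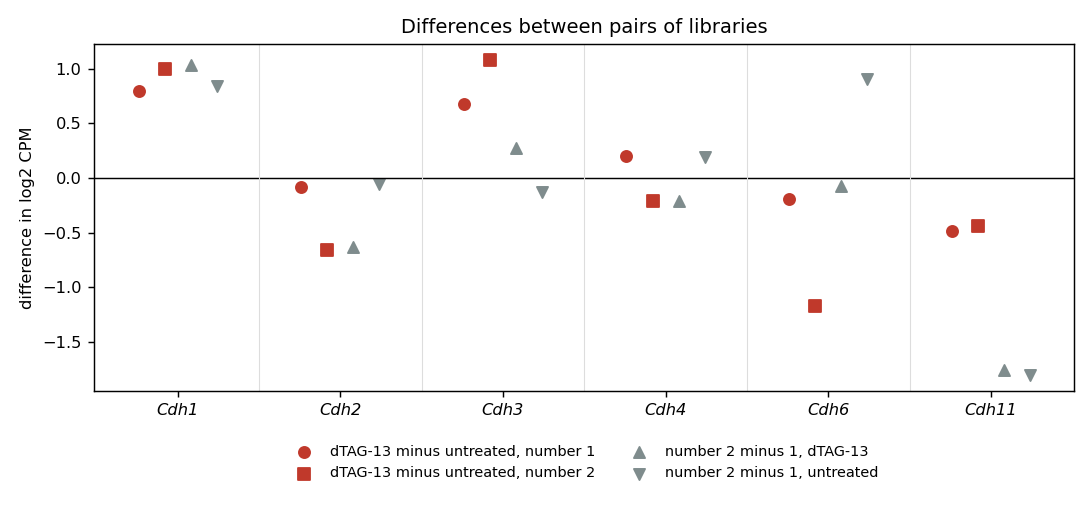
Differences in log2 CPM between pairs of libraries for each gene: dTAG-13 minus untreated within number 1 and number 2 (red), and number 2 minus number 1 within each group (grey). Cdh3 shows larger red than grey values, Cdh1 shows similar ones, and for Cdh11 the grey values of -1.75 and -1.80 exceed the red ones of -0.49 and -0.44.

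The cadherin switch is read from the balance of Cdh1 and Cdh2, which needs no depth scaling because both genes are counted in the same library. The Cdh1 to Cdh2 count ratio was 1.36 and 4.33 in dTAG-13 libraries 1 and 2, against 0.739 and 1.38 in untreated libraries 1 and 2. Cdh1 outnumbered Cdh2 in 3 libraries, and untreated library 1 alone held more Cdh2 reads. The ratio was 1.84-fold higher with dTAG-13 in number 1 and 3.14-fold higher in number 2. On the log2 scale the means were 1.28 ± 1.179 with dTAG-13 and 0.01 ± 0.63 in untreated libraries (SD, n = 2 each), a difference of 1.27. The groups overlapped by a small margin, and the exact two-sided permutation test, whose smallest possible p for 2 against 2 libraries is 0.333, gave p = 0.667, or 0.833 adjusted over the 15 pairs of members.

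As a share of the reads of both genes, Cdh1 held 57.7% (95% exact binomial interval 56.4% to 58.9%) in dTAG-13 library 1 and 81.2% (80.4% to 82.0%) in dTAG-13 library 2. In untreated libraries it held 42.5% (41.2% to 43.8%) and 57.9% (56.7% to 59.2%). These intervals cover counting error only. The shares in dTAG-13 library 1 and untreated library 2 could not be told apart at this depth, and the other libraries lay outside each other's intervals. The log2 difference was 0.43 without dTAG-13 replicate 2, 2.10 without dTAG-13 replicate 1, 0.82 when untreated library 1 was missing and 1.72 when untreated library 2 was missing.

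Levels of different genes were compared per kb of their longest coding transcript. Cdh1 was the most abundant of the 6 in both dTAG-13 libraries (68.1 and 139.8 CPM per kb) and in untreated library 2 (70.1 CPM per kb), and Cdh2 was first in untreated library 1 (48.5 against 39.2 CPM per kb for Cdh1). The other 4 stayed between 2.37 and 12.9 CPM per kb in all libraries, and Cdh4 was last in each. Averaged over the group, Cdh1 stood at 104 ± 50.7 CPM per kb with dTAG-13 and at 54.6 ± 21.8 in untreated libraries, and Cdh2 at 37.6 ± 11.4 with dTAG-13 and at 47.5 ± 1.38 in untreated libraries (SD, n = 2 each). In untreated libraries the levels of these neighbours in the order did not differ beyond their spread. With dTAG-13 the lower members ran in the order Cdh3, Cdh11, Cdh6 and Cdh4, and Cdh11, with a mean of 5.92 ± 4.57 CPM per kb, could not be placed among them.

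Of the summed CPM per kb of the 6 genes, Cdh1 made up 50.5% and 75.7% in dTAG-13 libraries 1 and 2, against 35.4% and 52.1% in untreated libraries 1 and 2. Cdh2 made up 33.8% and 15.99% with dTAG-13, against 43.8% and 34.6% in untreated libraries. The sum itself was 135 and 185 CPM per kb with dTAG-13 and 111 and 134 CPM per kb in untreated libraries. The sums of dTAG-13 library 1 and untreated library 2 were nearly equal, as were their Cdh1 shares.

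**Figure D3:**
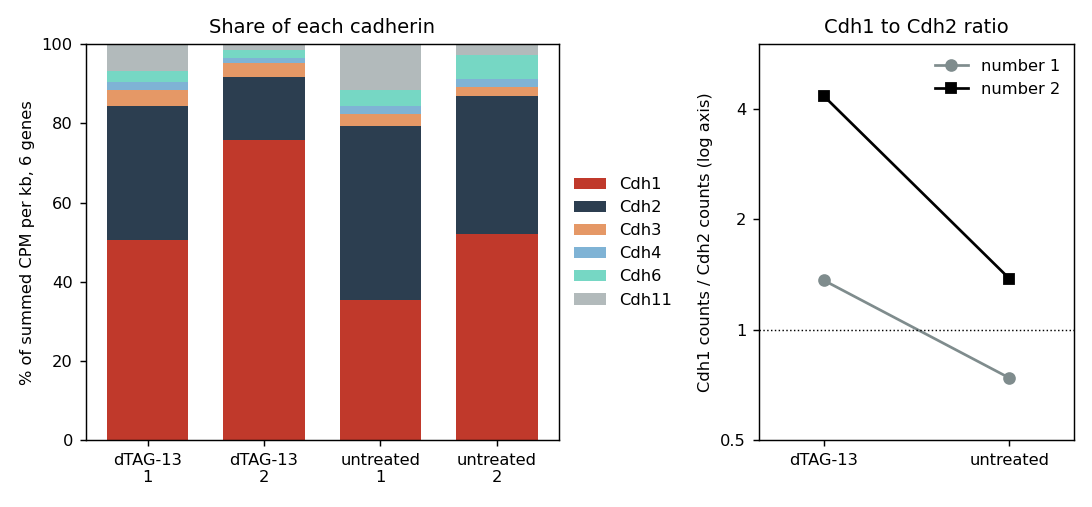
Left, the share of each of the 6 cadherin genes in their summed CPM per kb in each library. Right, the ratio of Cdh1 to Cdh2 counts on a log axis, with lines joining libraries of the same number; the ratio was 1.36 and 4.33 with dTAG-13 and 0.739 and 1.38 in untreated libraries.

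Among the 15 pairs of members, 6 had count ratios whose groups did not overlap. With 2 against 2 libraries, random group labels would separate a ratio with a probability of 0.333. The count of 6 is therefore not read as a result about the pairs. The pairs share genes and are not independent, and the exact two-sided permutation p was 0.333 for each of the 6, the smallest it can be, or 0.833 adjusted over the pairs. Cdh1 to Cdh6 was 9.56 and 20.6 with dTAG-13, against 4.82 and 4.58 in untreated libraries. This set the untreated libraries close together, since Cdh1 and Cdh6 were both higher in untreated library 2. Cdh3 to Cdh6 was 0.751 and 0.958 with dTAG-13, against 0.410 and 0.1997 in untreated libraries. Cdh2 to Cdh3, the N-cadherin to P-cadherin balance, was 9.33 and 4.97 with dTAG-13, against 15.9 and 16.7 in untreated libraries. The others were Cdh3 to Cdh4, Cdh2 to Cdh4 and Cdh4 to Cdh6, with log2 differences of 0.89, -0.36 and 0.67. Cdh1 to Cdh11 overlapped but was higher within both numbers, by 2.44-fold and 2.72-fold.

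Patterns were compared with 8616 other genes of moderate to high level by the distance between log2 CPM values centred over the 4 libraries. The nearest to Cdh1 were Spint1, which encodes an inhibitor of epithelial serine proteases, Kcnk1, a potassium channel, and Capn5, a calpain protease (distances of 0.0785, 0.190 and 0.203, with r of 0.998, 0.997 and 0.991 over 4 libraries). Spint1 had 42.7 and 93.1 CPM with dTAG-13, against 26.1 and 46.7 CPM in untreated libraries, the same order of libraries as Cdh1 including the slight overlap. The nearest to Cdh2 were Greb1, Trib2, a pseudokinase, and Pcdhgc3, a gamma protocadherin, with distances of 0.0621, 0.0856 and 0.0869. Greb1 had 209 and 140.5 CPM with dTAG-13, against 217 and 216 CPM in untreated libraries. Pcdhgc3 shares its last exons with other genes of its cluster, so its count is uncertain.

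Among the catenins, which bind the cadherin tails, 5 of 8 tested genes were above untreated and 3 below, and 0 were called in edgeR. The median log2 fold change was 0.13, against 0.00 over all genes tested. Jup, which encodes plakoglobin, a catenin shared by adherens junctions and desmosomes, had 87.3 and 121 CPM with dTAG-13, against 45.3 and 43.9 CPM in untreated libraries. The groups lay well apart, and the log2 fold change was 1.23 ± 0.19 (SE, adjusted p of 0.760 in edgeR). DESeq2 called Jup, so it rose by that test, and it was the only catenin called there, against 0.34% of all genes. Ctnna1, the alpha-catenin of most epithelia, had 510 and 434 CPM with dTAG-13, against 375 and 373 CPM in untreated libraries (log2 fold change 0.34 ± 0.15). Ctnna2, the alpha-catenin of neurons, had 1.96 and 2.04 CPM with dTAG-13, against 4.37 and 2.85 CPM in untreated libraries.

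The dTAG-13 libraries were above both untreated ones for 5 of the 8 catenins, against 14.4% of all genes, and below both for 2, against 11.9%. Beta-catenin itself, encoded by Ctnnb1 and singled out after its values were seen, was among the 5 with a small step: 1032 and 1007 CPM with dTAG-13, against 942 and 996 CPM in untreated libraries. Its log2 fold change was 0.07 ± 0.15, with an adjusted p of 1.00 in edgeR. Ctnna3 had 0 counts in all 4 libraries.

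Of 12 genes for nectins and for proteins that link the junction to actin, 9 were above untreated and 3 below, with a median log2 fold change of 0.12 and 0 called in edgeR. Nectin4, an adhesion molecule of the immunoglobulin family found in skin and placenta, had 9.64 and 19.4 CPM with dTAG-13, against 2.11 and 3.20 CPM in untreated libraries. The groups did not overlap, and the log2 fold change of 2.45 ± 0.45 was called by DESeq2 but not by edgeR (adjusted p of 0.774). Nectin2, another member of that family, had 68.7 and 121.9 CPM with dTAG-13, against 44.5 and 64.4 CPM in untreated libraries (log2 fold change 0.81 ± 0.34). Lima1, an actin-binding protein of the junction also called EPLIN, had 114 and 128 CPM with dTAG-13, against 90.4 and 96.2 CPM in untreated libraries (log2 fold change 0.37 ± 0.14). These 3 were the genes of the 12 with both dTAG-13 libraries above both untreated ones, against 14.4% of all genes.

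All 8 genes for proteases and other proteins that process or remove cadherins were above untreated in the fit, with a median log2 fold change of only 0.08 and 0 called in edgeR or DESeq2. Of these, 4 were above untreated in both numbers, against 3771 of all 13602 genes tested. Furin, a protease known to cut the cadherin propeptide, had 63.0 and 76.8 CPM with dTAG-13, against 44.8 and 51.3 CPM in untreated libraries, without overlap (log2 fold change 0.54 ± 0.16). Cbll1, a ubiquitin ligase of E-cadherin also called Hakai, had a log2 fold change of 0.20 ± 0.17, and Psen2, a gamma-secretase subunit, of 0.40 ± 0.45.

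The 9 epithelial activators, transcription factors known to promote epithelial genes, were all above untreated, 7 of them in both numbers. Their median log2 fold change was 0.80, and 0 were called in edgeR or DESeq2. Elf3 had 28.2 and 39.6 CPM with dTAG-13, against 18.2 and 20.6 CPM in untreated libraries, and Klf5 had 25.2 and 37.9 CPM with dTAG-13, against 14.7 and 19.0 CPM in untreated libraries. Ovol1, which is also known as a repressor of Zeb genes, had 8.10 and 14.01 CPM with dTAG-13, against 1.81 and 4.18 CPM in untreated libraries. For 4 of the 9 both dTAG-13 libraries lay above both untreated ones, against 14.4% of all genes. The list's median was 0.36 without dTAG-13 replicate 2, where it moved most.

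Of the known repressors of Cdh1, all 8 tested were below untreated in the fit, 5 of them in both numbers, with a median log2 fold change of -0.25 and 0 called in edgeR or DESeq2. Without untreated replicate 1 the median was -0.04, over 9 tested genes because the filter was rerun in that fit. Zeb1, the paralog of Zeb2, had 59.9 and 26.1 CPM with dTAG-13, against 84.6 and 56.0 CPM in untreated libraries, which put it lower within both numbers while the groups overlapped. Zeb2 itself had a log2 fold change of -0.32 ± 0.25, and Tcf4, an E-protein, of -0.21 ± 0.15. In 1 of the 8, Tcf3, singled out after its values were seen, both dTAG-13 libraries lay below both untreated ones, against 11.9% of all genes, by a log2 fold change of -0.04.

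**Figure D4:**
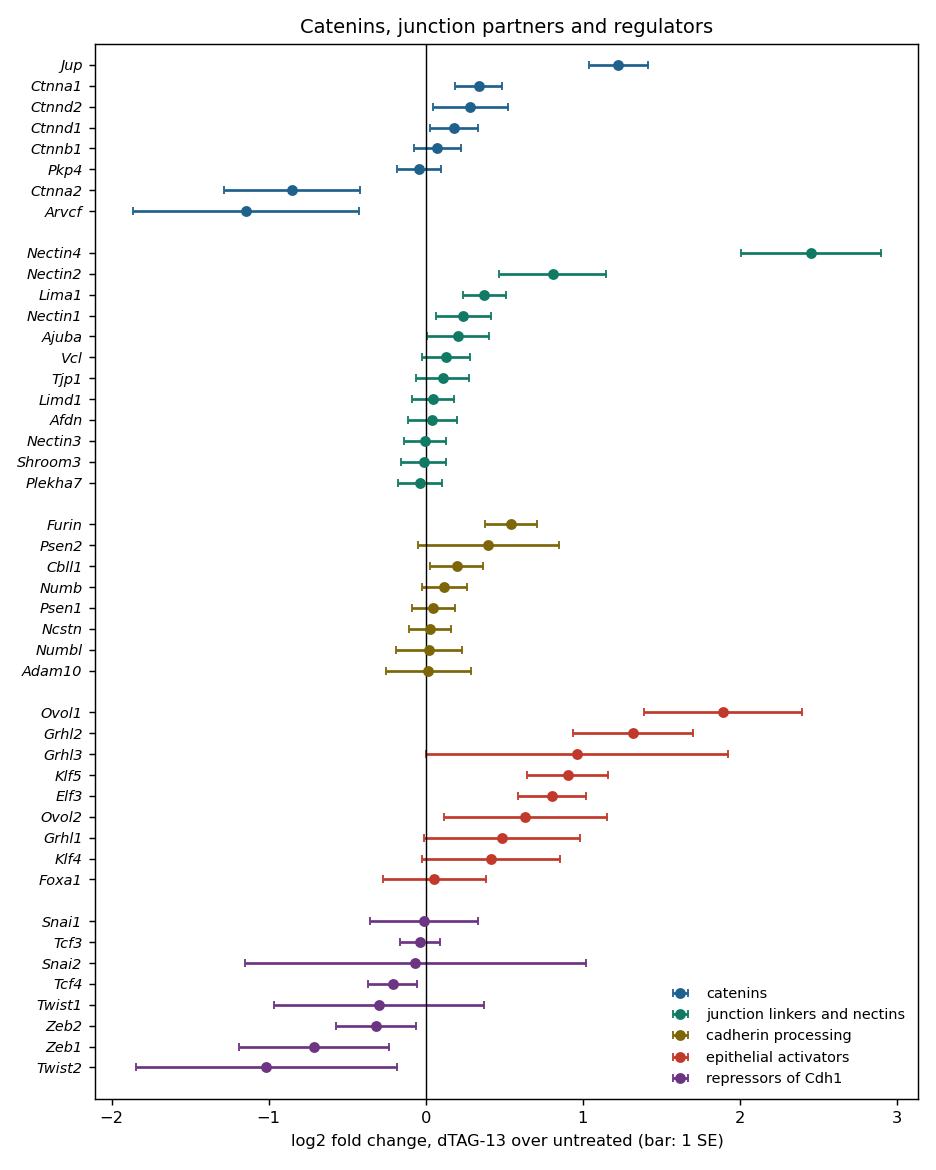
Log2 fold change of dTAG-13 over untreated from edgeR for each tested gene of the catenins, junction linkers and nectins, cadherin processing genes, epithelial activators and repressors of Cdh1; bars are 1 SE. Jup (1.23) and Nectin4 (2.45) lead their lists, and the 9 epithelial activators lie to the right of 0.

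Genes used as mesenchymal markers had 3 of 8 members above untreated and 5 below, a median log2 fold change of -0.15 and 0 called in edgeR or DESeq2. Fn1, which encodes fibronectin, had 1818 and 1024 CPM with dTAG-13, against 1309 and 955 CPM in untreated libraries. Like Cdh11 it was higher in library 1 than in library 2 of each group. Mmp2, a matrix protease, had a log2 fold change of -0.23 ± 0.33 and Col3a1, a fibrillar collagen, of -1.07 ± 0.97. The median of the list took either sign with a library missing, 0.49 without untreated replicate 1 and -0.71 when dTAG-13 library 1 was left out. The latter covered 9 tested genes, because the filter was rerun in that fit.

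The other 12 classical cadherins were low. Together they reached 39.2 and 28.7 CPM with dTAG-13 and 48.7 and 28.8 CPM in untreated libraries, and 7 could be tested, 2 above and 5 below untreated with 0 called in edgeR or DESeq2. Their median log2 fold change was -0.20, but it was positive when any library except dTAG-13 library 1 was left out, with values of 0.16 to 0.81. The filter was rerun in those fits, so these medians covered 8 or 9 tested genes in place of 7. The change of sign therefore mixes the missing library with a change of genes. Cdh20 had a log2 fold change of -0.77 ± 0.57, Cdh15 of 0.63 ± 0.66 and Cdh22 of 0.35 ± 0.69. Cdh5, the cadherin of blood vessels, was singled out after its values were seen, because it split by number as Cdh11 did. It had 12.5 and 1.19 CPM with dTAG-13, against 16.6 and 2.58 CPM in untreated libraries.

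Marker genes of the tissues that gastruloids can hold were read beside the cadherins, in lists chosen with earlier results of these data known. The edgeR test called 0 of the 65 tested. DESeq2 called 8 of the 52 to which it gave an adjusted p, against 40 of 11756 (0.34%) over all genes. DESeq2 called 5 epithelial markers higher with dTAG-13 (Krt8, Krt18, Cldn6, Cldn7 and Rab25), the surface ectoderm marker Dlx5 higher, and the neural tube markers Sox1 and Irx3 lower. All 7 markers of epithelium had both dTAG-13 libraries above both untreated ones, against 14.4% of all genes, with summed levels of 700 and 1271 CPM with dTAG-13 against 382 and 475 CPM in untreated libraries, and all 5 surface ectoderm markers measured were above untreated, with sums of 31.6 and 72.5 CPM with dTAG-13 against 10.998 and 14.2 CPM in untreated libraries. Of the surface ectoderm markers, Krt14 had 0 to 2 counts a library. Set against the epithelial sum, Cdh1 came to 43.1% and 48.7% with dTAG-13 and to 45.4% and 65.3% in untreated libraries, so its share of that sum was not higher with dTAG-13. Pluripotent cells and germ cells also use E-cadherin; pluripotency markers summed to 299 and 464 CPM with dTAG-13 and to 252 and 319.7 CPM in untreated libraries, and germ cell markers to 134 and 221 CPM with dTAG-13 and 86.6 and 109.5 CPM in untreated libraries. The germ cell sum was led by Tfap2c and Prdm1, singled out after their values were seen. Tfap2c had 55.9 and 157 CPM with dTAG-13 and 32.2 and 76.8 CPM in untreated libraries. Prdm1 had 60.4 and 38.5 CPM with dTAG-13 and 37.1 and 16.8 CPM in untreated libraries. Dppa3 alone of these markers was lower with dTAG-13 in number 1 (9.64 against 11.7 CPM). Gut endoderm markers summed to 114 and 96.3 CPM with dTAG-13 and to 90.7 and 63.8 CPM in untreated libraries. Of these 6 genes, 5 were above untreated in both numbers, against 3771 of all 13602 genes tested. Whether more epithelial, surface ectoderm, gut endoderm, pluripotent or germ cells account for the Cdh1 and Cdh3 values was not tested.

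Neural tube markers were below untreated for 7 of 7, with sums of 139 and 188 CPM with dTAG-13 against 200.1 and 355 CPM in untreated libraries. Of 6 somite markers tested, 5 were below untreated within both numbers, against 3250 of all 13602 genes tested. Foxc1 was level (113.03 and 40.3 CPM with dTAG-13, against 104.6 and 48.5 CPM in untreated libraries). The somite sums were 231 and 106 CPM with dTAG-13 against 344 and 177 CPM in untreated libraries. Presomitic mesoderm markers summed to 122 and 86.3 CPM with dTAG-13 against 163 and 171 CPM in untreated libraries. Of these 6 genes, 5 were below untreated within both numbers and 1 was above in both. Cdh2 came to 159% and 76.03% of the neural sum with dTAG-13 and to 117.3% and 63.5% in untreated libraries, so it was lower by less than this sum. Sox2, singled out after its values were seen, was the largest part of the neural sum in each library. It had 95.6 and 139 CPM with dTAG-13 and 104 and 204 CPM in untreated libraries. Cdh2 was not lower by less than Sox2 in number 2, where the dTAG-13 to untreated fold was 0.635 for Cdh2 and 0.682 for Sox2. In number 1 these folds were 0.943 and 0.923. Cdh6, also known from the neural tube, came to 22.7% and 15.98% of the neural sum with dTAG-13 and to 17.997% and 19.1% in untreated libraries. Set against the somite sum, Cdh2 came to 95.9% and 134.8% with dTAG-13 and to 68.2% and 127.5% in untreated libraries. The part of these tissues in the Cdh2 and Cdh6 values was not tested.

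The summed endothelial and heart markers split by number as Cdh11 did, but Pecam1 and Myh6 did not. The endothelial sum was 121 and 46.7 CPM with dTAG-13 and 145 and 38.5 CPM in untreated libraries, and the heart sum 41.0 and 11.7 CPM with dTAG-13 and 33.97 and 8.19 CPM in untreated libraries. Pecam1, an endothelial adhesion gene, had 23.2 and 25.3 CPM with dTAG-13, against 18.7 and 17.97 CPM in untreated libraries, and in the number 1 libraries the sums were led by Kdr and Gata4. The somite sums given above also split by number. So did the neural crest sums, at 47.2 and 20.8 CPM with dTAG-13 and 63.4 and 36.3 CPM in untreated libraries. Both had the library order of Cdh11, with the dTAG-13 library lower within each number. Tcf15 and Pax3 (somite) and Ednrb and Tfap2b (neural crest), singled out after their values were seen, were not higher in library 1 of each group. The part of any of these cells in the Cdh11 values was not tested.

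**Figure D5:**
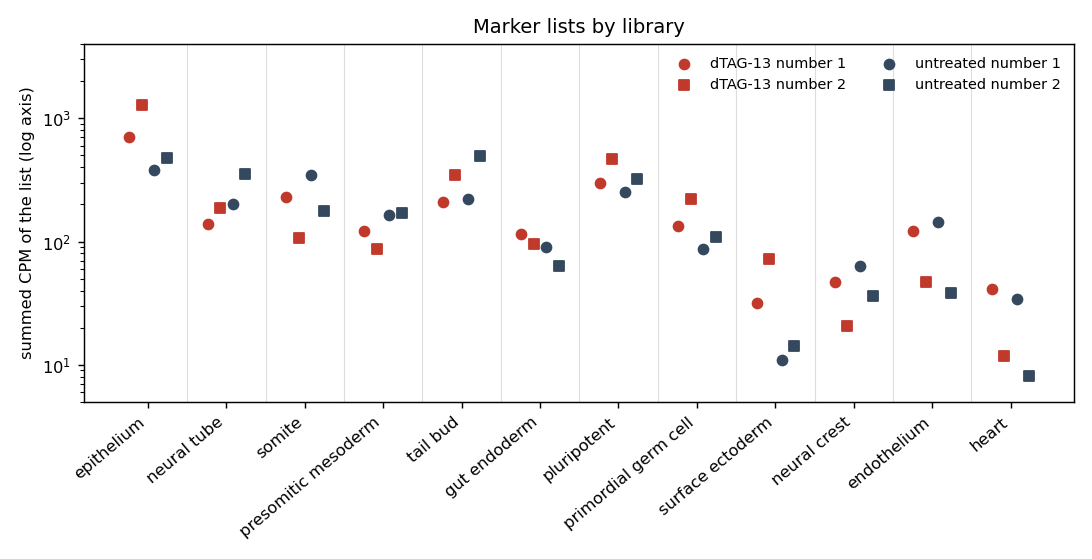
Summed CPM of each marker list on a log axis, for dTAG-13 libraries (red) and untreated libraries (dark), with circles for number 1 and squares for number 2. The epithelial sums were 700 and 1271 CPM with dTAG-13 and 382 and 475 CPM in untreated libraries. The endothelial, heart, somite and neural crest sums separated by number.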

How the data were processed

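RNA was sequenced from 4 gastruloid samples, 2 per group, after depletion of ribosomal RNA, per the labels' protocols. The submitters' processing notes name STAR 2.7.6a, fastp 0.20.1, DESeq2 1.34.0, HTSeq 0.12.4, mm10 and GRCm38.p6, without roles. Annotation and strand setting were not given in the sources used here. Deposited values are raw counts of reads per gene symbol. The summary lines of each file did not enter library sizes; reads outside genes made up 24.1% to 35.7% and ambiguous reads 0.209% to 0.240%.

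Counts were tested with edgeR 4.0.16 in R 4.3.3 (filterByExpr with minimum count 10 and minimum total 15, TMM, glmQLFit with robust estimation, two-sided glmQLFTest, Benjamini-Hochberg adjustment over 13602 genes, threshold 0.05), with the group as the only term. SE is the absolute log2 fold change over the root of F. CPM use TMM library sizes; log2 CPM within numbers add a prior count of 2. DESeq2 1.42.0 ran on the same genes. On simulated counts the edgeR test gave the sign and median size of known changes, though it called only part of the smaller ones. The simulation used a common dispersion for all genes and no shift shared by same-numbered libraries. It therefore does not show how the test performs on these data. Replicates of a group differed beyond sampling noise (chi-square over degrees of freedom 32.7 for dTAG-13 and 38.4 for untreated). Members and lists were chosen with earlier results of these data known. Genes named were the members, Zeb2, the 3 of smallest p in each of 7 lists and the 3 nearest to Cdh1 and Cdh2; others are said to be singled out.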

Additional observations from a re-analysis of the deposited data

How the results depend on the processing

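Direction held for Cdh1, Cdh2, Cdh3 and Cdh6 under every alternative run, and for the Cdh1 to Cdh2 ratio with each library left out. With a library left out, the log2 fold change ranged from 0.30 to 1.41 for Cdh1, -0.69 to -0.08 for Cdh2, 0.72 to 1.02 for Cdh3, -0.12 to 0.10 for Cdh4, -1.15 to -0.22 for Cdh6 and -1.62 to 0.68 for Cdh11, and the ratio difference from 0.43 to 2.10; these fits assume that the lone library of a group varies like the other group. The sign of Cdh11 turned without untreated replicate 1 (0.68) or dTAG-13 replicate 2 (0.12), and that of Cdh4 without untreated replicate 2 (0.10) or dTAG-13 replicate 2 (0.08). Of 84 list medians under alternatives, 23 moved by more than the spread between the numbers, 16 of them with a library left out, and 5 took the opposite sign. The genes tested in a list could differ between these fits, since the filter was rerun or changed. RLE or upper quartile factors, other filters, the fit without robust estimation and leaving out mitochondrial and the 50 highest genes called 0 genes in edgeR, as did leaving out each library; DESeq2 called 40 and 0 of the 6 cadherins.

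A replicate block (the number as a second term) gave 636 called genes in edgeR (4.68%), 395 higher and 241 lower, and 4 of the 6 cadherins: Cdh1 (0.90, adjusted p = 3.43e-05), Cdh3 (0.88, 1.11e-04), Cdh6 (-0.69, 2.47e-04) and Cdh11 (-0.47, 0.0436), but not Cdh2 (-0.37, 0.253). No label says that a number marks a shared culture or batch. Deviations of same-numbered libraries from their group means correlated across genes (r = 0.63 over 13602 genes, which are not independent), a hint from the data and not the design. The ratio difference of 1.27 is the same by arithmetic with the block or per kb, which says nothing of its stability.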
